A study of Mus musculus with 6 samples.

Results

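The serpins, a family of protease inhibitors and hormone carriers, were described in whole liver of mice fed a high-fat diet, in LIGHT transgenic mice (LIGHT Tg) and in wild-type mice (WT). The members were all probe sets whose gene symbol starts with Serpin and that carry 1 gene symbol. This gave 56 probe sets for 40 genes, of 45037 probe sets other than controls and 18193 genes with such a probe set on the array. RefSeq names 69 Serpin genes in the mouse assembly GRCm38.p6. Genes to which the annotation used gives no probe set of their own, among them all of clade E and several neighbours of the α1-antitrypsin and α1-antichymotrypsin genes, were not analysed here. A further 3 Serpin probe sets carry several symbols and were kept apart from the members.

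Serpins share a fold with an exposed loop that a protease takes for its substrate. When the protease cuts the loop, the serpin changes shape and traps the enzyme in a complex that is then cleared. Liver is the main source of the serpins in blood, which hold back coagulation, complement and leukocyte proteases, while clade B serpins stay inside cells. Some members, such as the carriers of corticosteroids and thyroid hormone and the collagen chaperone HSP47, inhibit no protease.

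The 3 LIGHT Tg and 3 WT samples came from mice aged 4 to 8 weeks after 2 weeks of high-fat diet, with 1 Affymetrix array per sample. LIGHT, a ligand of the tumour necrosis factor family, is the product of Tnfsf14. Titles and source names set the groups, because the descriptions call all 6 samples wild-type. The source names give the strain B6 for WT and no strain for LIGHT Tg, so genetic background and transgene cannot be told apart. Which promoter drives the transgene, and in which cells, is not stated in the labels used here. No label says that each sample is a separate animal, so p-values measure the spread between samples, which may be technical. Values are the authors' MAS5 signals on a linear scale. Because whole liver was used, fewer cells of a type and less RNA per cell cannot be told apart.

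Titles number the LIGHT Tg samples 77, 34 and 35 (LIGHT Tg 1, 2 and 3) and the WT samples 78, 30 and 31 (WT 1, 2 and 3). The 2 arrays titled 77 and 78, 1 of each genotype, stood apart from the 4 arrays titled 30 to 35. Xist, the RNA that silences the inactive X chromosome in female cells, had a signal of 406.6 on LIGHT Tg 1 and 444.0 on WT 1. On the other 4 arrays it read 7993.5 to 9713.5. The Y-chromosome genes Kdm5d, Uty and Eif2s3y were higher on LIGHT Tg 1 and WT 1, with means below the filter on low values. Kdm5d read 487.8 and 568.6 there, against 41.3 to 108.3 on the other arrays. Uty read 245.6 and 435.8, against 76.2 to 132.3, and Eif2s3y 41.5 and 62.6, against 4.4 to 29.6. The labels used here give no sex. Each comparison of genotypes is therefore given without and with this title-number set as a block, and within each set. The brighter Tnfsf14 probe set read 55.7, 19.3 and 26.7 in LIGHT Tg and 7.7, 11.8 and 7.43 in WT. These groups did not overlap, but the difference of 1.80 ± 0.594 on the log2 scale (SE, n = 3 each) did not pass the test (limma adjusted p = 0.423 with no filter), and the signals lie below the filter on low values. The dimmer probe set ran the other way, with 2.3, 3.1 and 5.6 in LIGHT Tg and 4.25, 3.75 and 7.83 in WT (-0.55 ± 0.543, limma adjusted p = 0.942 with no filter).

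The serpins of plasma were among the brightest signals on these arrays, and clade B was mostly dim. A probe set was tested where its mean log2 signal reached the median of all probe sets, a signal of 167.4. This left 28 of the 56 Serpin probe sets, for 22 genes. By clade, 13 of 18 probe sets of clade A passed, as did 7 of 26 of clade B, all 8 of clades C, D, F, G and H, and 0 of 4 of clade I. Nearest the limit, the brighter Serpinb8 probe set passed with a mean log2 signal of 7.445, and Serpina3a did not with 7.225.

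**Figure D1:**
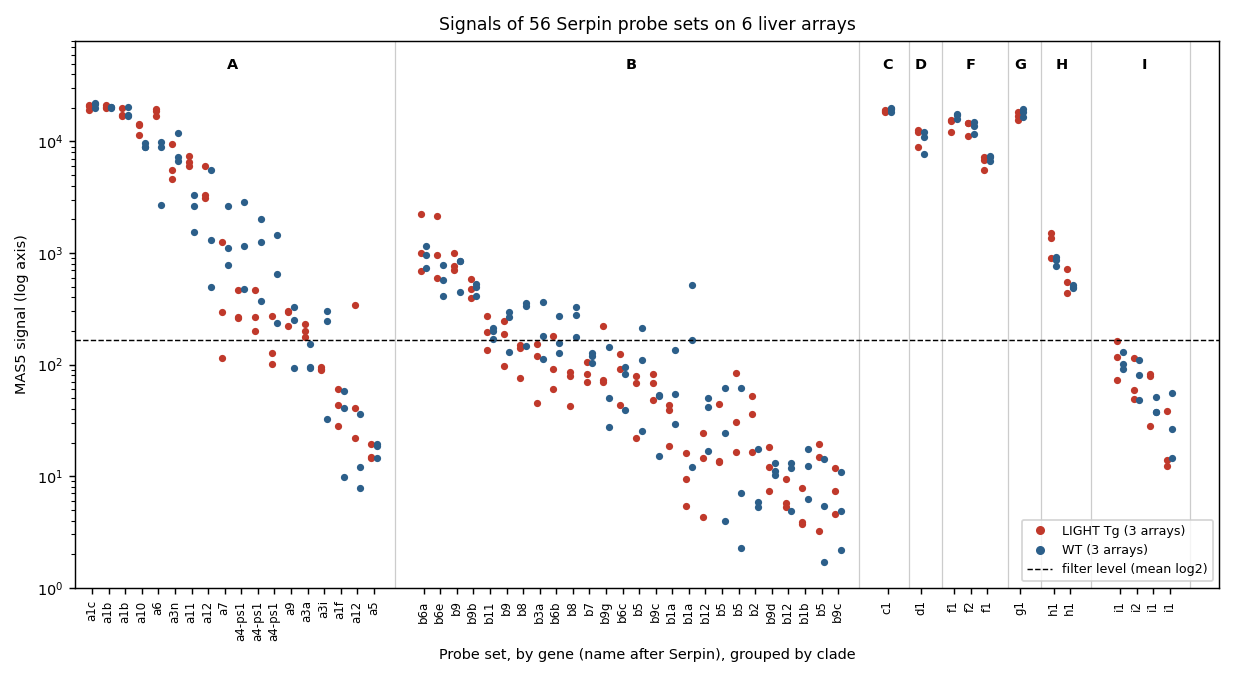
MAS5 signal of each of the 56 Serpin probe sets on a log axis, 1 point per array, LIGHT Tg (red) left of WT (blue), grouped by clade and ordered by mean signal, with a dashed line at the filter level for the mean (signal 167.4). Signals span from 1.7 in clade B to 22221 in clade A, most of clade B lies below the line, and signals of different probe sets are not comparable as amounts of RNA.

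Once the title-number set was a block, Serpina6, Serpina10 and Serpina11 rose in LIGHT Tg samples against WT samples. Serpina3n, Serpina7 and Serpinb8 fell, so that 3 Serpin genes were higher and 3 lower. That is 10.7% of the 28 tested probe sets in each direction, against 3.26% (higher) and 3.21% (lower) of all 22519 tested probe sets at 5% FDR. Without the block 0 of 28 passed, where 1.17% of all tested probe sets did (0.715% higher and 0.457% lower). The lowest limma adjusted p without the block was 0.063, for Serpina11. An unadjusted limma p under 0.05 was found for 8 of the 28, a larger share than the 2473 of all 22519 tested probe sets. All 3 probe sets of Serpina4-ps1 are among these 8. The LIGHT Tg signals lay above all WT signals for 3 tested probe sets, those of the 3 genes that rose, which is 10.7% of tested Serpin probe sets against 8.17% of all. On the low side 2 probe sets did not overlap, 1 each of Serpina4-ps1 and Serpinf1, which is 7.14% against 9.19%. The median log2 difference, LIGHT Tg minus WT, was 0.00 over the 28 probe sets and -0.01 over all tested. The median size of the difference was 0.35 (log2) for Serpin probe sets and 0.21 for all. It was 1.38 in clade A, 0.31 in clade B and 0.13 in the other clades together. These medians count probe sets, not genes, and 3 of the 13 in clade A are of Serpina4-ps1 (-1.87, -1.73 and -1.99).

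**Figure D2:**
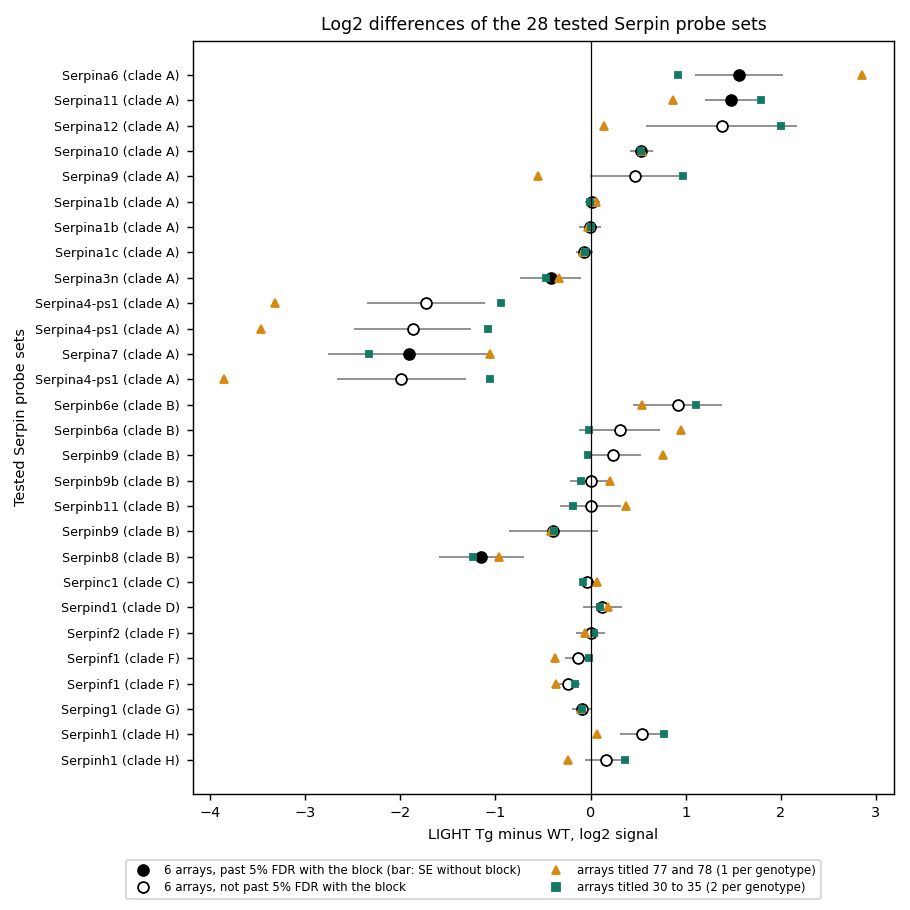
Log2 difference, LIGHT Tg minus WT, of the 28 tested Serpin probe sets: circles are the fit over 6 arrays with the SE without the block as a bar (filled where past 5% FDR with the block), triangles the difference between arrays 77 and 78 and squares that within arrays 30 to 35. The 6 filled circles are all in clades A and B, and the circles of clades C, D, F and G lie between -0.23 and 0.12.

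The corticosteroid carrier rose in LIGHT Tg and the thyroid hormone carrier fell. Serpina6 (chromosome 12) encodes corticosteroid-binding globulin, the plasma protein that binds glucocorticoids. Its signals were 19626, 18673 and 17018 in LIGHT Tg, against 2697, 9972 and 8961.5 in WT. All LIGHT Tg arrays were above all WT arrays, and WT 1 was the lowest by far. LIGHT Tg was higher by 1.56 on the log2 scale (2.96-fold), with an SE of 0.46 without the block (adjusted p = 0.227) and 0.35 with it (limma adjusted p = 0.0455, n = 3 each). The fold was 7.28 between the arrays titled 77 and 78 and 1.89 within the arrays titled 30 to 35, where it passed the test alone (limma adjusted p = 0.00713, n = 2 each).

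Serpina7 (chromosome X) encodes thyroxine-binding globulin, which carries thyroid hormone in plasma. It read 1265, 115.5 and 296.9 in LIGHT Tg, against 2631, 777.8 and 1114 in WT. The groups overlapped, since LIGHT Tg 1 lay above all but WT 1, while within each title-number set LIGHT Tg was lower. The log2 difference was -1.91, with an SE of 0.85 without the block (adjusted p = 0.484) and 0.40 with it (limma adjusted p = 0.0376). WT was 3.75-fold higher on average. Within arrays 30 to 35 the difference was -2.33 (limma adjusted p = 0.0464) and between arrays 77 and 78 it was -1.06.

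Among inhibitors of coagulation, Serpina10 rose and no other tested member passed. Serpina10 (chromosome 12) encodes the protein Z-dependent protease inhibitor, which acts on activated factors X and XI. It read 14153, 11546 and 14459 in LIGHT Tg, against 9735, 8880.5 and 8987 in WT. The groups did not overlap, and the rise was nearly the same in each title-number set, 0.54 on the log2 scale between arrays 77 and 78 and 0.53 within arrays 30 to 35. It was 1.45-fold over all arrays, a log2 difference of 0.535 with an SE of 0.12 without the block (adjusted p = 0.114) and 0.093 with it (limma adjusted p = 0.0194).

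Serpinc1, the only clade C member, is antithrombin, which inhibits thrombin and activated factor X. It read 19330.3, 18532 and 18660.5 in LIGHT Tg, against 18477, 19856 and 19516 in WT. The arrays of the groups were intermixed, with a log2 difference of -0.03 ± 0.082 (limma adjusted p = 0.965). Serpind1, the only clade D member, is heparin cofactor II, an inhibitor of thrombin. It read 8843, 12150.4 and 12604 in LIGHT Tg, against 7796, 12189.8 and 11012 in WT, and both groups were lowest on arrays 77 and 78. The log2 difference was 0.12 ± 0.208 (limma adjusted p = 0.933). Serpinf2 is α2-antiplasmin, the inhibitor of plasmin, and read 11203, 14691 and 14686 in LIGHT Tg, against 11642, 13729 and 15014 in WT, with a log2 difference of 0.00 ± 0.151. Its groups overlapped throughout. Serping1, the only clade G member, is the C1 inhibitor of complement and the contact system. It read 15613, 17014 and 18414.5 in LIGHT Tg, against 16725, 18404 and 19354 in WT, a log2 difference of -0.09 ± 0.105 (limma adjusted p = 0.868). Serpina5, the protein C inhibitor, stayed between 14.4 and 19.6 on all arrays and was not tested.

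Among the antiproteases against leukocyte enzymes, members near the top of the signal range did not pass. The acute-phase member Serpina3n was called lower only with the block, and lost that call in each refit with 1 array left out. Serpina1b and Serpina1c are copies of the α1-antitrypsin gene, whose product inhibits neutrophil elastase. Serpina1c read 19083, 21224 and 21002.5 in LIGHT Tg, against 20126, 21817 and 22221 in WT. The arrays overlapped, and the log2 difference was -0.07 ± 0.090 (limma adjusted p = 0.909). Serpina1b gave 0.016 ± 0.079 and -0.01 ± 0.116 on its 2 probe sets. The copies are nearly identical, so a probe set of 1 copy may hold signal of another, and these signals lie near the highest signal on any array, 28859. The labels do not say whether any of them were saturated. The same limit holds for other bright members, such as Serpinc1 (up to 19856), Serping1 (up to 19354) and Serpina6 in LIGHT Tg (up to 19626).

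Serpina3n (chromosome 12) is a mouse α1-antichymotrypsin gene that is induced in the acute phase. It read 9496, 4608 and 5504 in LIGHT Tg, against 11951, 6676 and 7237 in WT. LIGHT Tg was below WT within each title-number set, but the groups overlapped because both were highest on arrays 77 and 78. The log2 difference was -0.42, with an SE of 0.32 without the block (adjusted p = 0.758) and 0.095 with it (limma adjusted p = 0.0473). It was -0.33 between arrays 77 and 78 and -0.465 within arrays 30 to 35, where it did not pass alone (adjusted p = 0.10). Serpina3a and Serpina3i, relatives in the same cluster, fell below the filter. Serpina3a read 201.1, 229.9 and 177.8 in LIGHT Tg, against 153.9, 93.0 and 95.4 in WT, without overlap, but did not pass with no filter (0.86 ± 0.337 on the log2 scale, limma adjusted p = 0.564). Serpina3i read 90.3 to 94.5 in LIGHT Tg and 32.4 to 304.0 in WT.

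Serpina11 had the lowest adjusted p among the members over the 6 arrays, both without and with the block. Serpina11 (chromosome 12) lies between the α1-antitrypsin copies and Serpina9. It read 6023, 6568 and 7361 in LIGHT Tg, against 3303, 1536 and 2638 in WT. The lowest LIGHT Tg signal was well above the highest WT signal. The difference was 2.79-fold, a log2 difference of 1.48 with an SE of 0.27 without the block (adjusted p = 0.063) and 0.25 with it (limma adjusted p = 0.0174). It was 0.87 between arrays 77 and 78 and 1.79 within arrays 30 to 35 (limma adjusted p = 0.0189).

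Other clade A members did not pass. Serpina12, vaspin, is known as an adipokine and read 6085, 3113 and 3290.4 in LIGHT Tg, against 5505, 494.0 and 1304.5 in WT. WT 1 was close to LIGHT Tg 1, while WT 2 and WT 3 were dim. The log2 difference was 1.38 ± 0.793 (limma adjusted p = 0.635 without the block and 0.13 with it), made of 0.145 between arrays 77 and 78 and 2.00 within arrays 30 to 35. A dimmer Serpina12 probe set, below the filter, read 345.7, 40.7 and 22.0 in LIGHT Tg, against 36.0, 7.9 and 12.1 in WT. Serpina4-ps1, a pseudogene related to kallistatin, read 259.4, 465.5 and 267.0 on its brightest probe set in LIGHT Tg, against 2876, 473.9 and 1167 in WT. On this probe set LIGHT Tg was below WT on every array, although LIGHT Tg 2 and WT 2 were close. The groups overlapped on the dimmer probe sets, where LIGHT Tg 2 lay above WT 2 (469.8 against 371.5, and 272.9 against 234.1). The 3 probe sets of Serpina4-ps1 gave log2 differences of -1.87, -1.73 and -1.99, with the lowest limma adjusted p at 0.287 without the block and 0.0959 with it. Serpina9, known in humans from germinal centre B cells, gave 0.465 ± 0.466. Serpina1f stayed between 9.92 and 60.5 and was not tested.

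**Figure D3:**
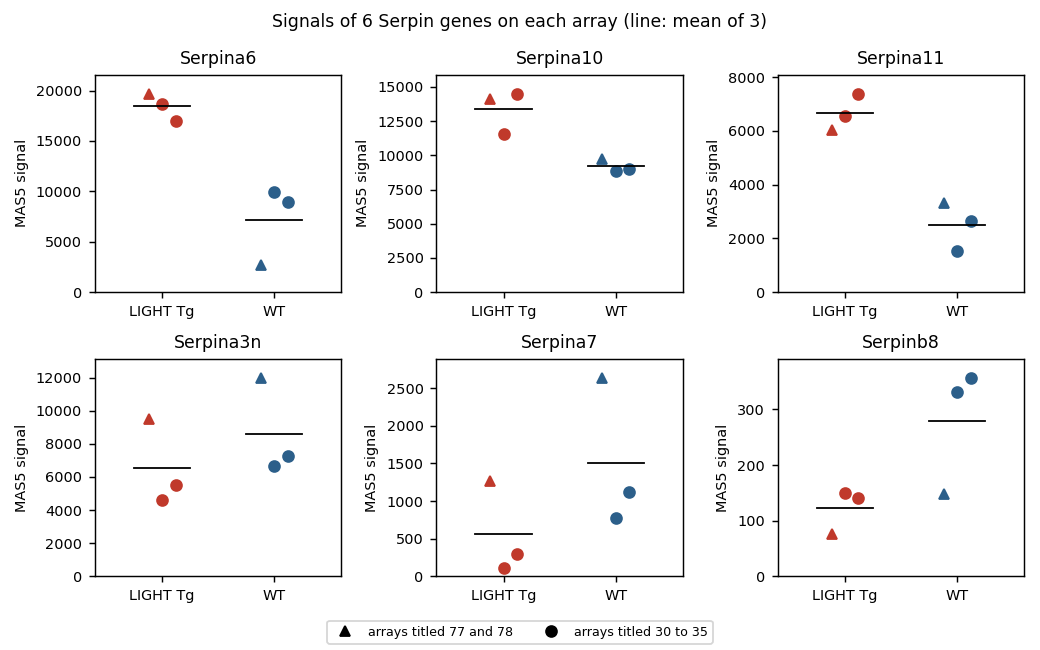
MAS5 signal on a linear axis from 0 for the 6 Serpin genes past 5% FDR with the title-number set as a block, 1 point per array, LIGHT Tg left of WT, with the mean of 3 arrays as a line, triangles for arrays 77 and 78 and circles for arrays 30 to 35. The groups of Serpina6, Serpina10 and Serpina11 do not overlap, while those of Serpina3n, Serpina7 and Serpinb8 overlap and separate within each kind of symbol.

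Clade B serpins are intracellular and guard cells against their own or released proteases. Of 18 clade B genes 6 had a tested probe set, and 1 of them, Serpinb8, passed. Serpinb8 (chromosome 1) read 76.1, 150.1 and 140.4 in LIGHT Tg, against 147.9, 332.0 and 355.9 in WT. LIGHT Tg was lower within each title-number set, while LIGHT Tg 2 lay just above WT 1. In log2 the difference was -1.15, with an SE of 0.447 without the block (adjusted p = 0.394) and 0.21 with it (limma adjusted p = 0.0222). Its dimmer probe set, below the filter, read 85.4, 78.3 and 42.7 in LIGHT Tg, against 176.7, 279.4 and 327.7 in WT. Those groups did not overlap, and the difference of -1.94 ± 0.424 did not pass with no filter (limma adjusted p = 0.145 without the block and 0.0619 with it, a setting chosen after seeing the data).

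Serpinb6a, whose human counterpart inhibits cathepsin G, was the brightest clade B member at 2262, 695.2 and 998.7 in LIGHT Tg, against 1166, 733.5 and 969.3 in WT. Only LIGHT Tg 1 stood out, and the log2 difference was 0.31 ± 0.425. Serpinb6e gave 0.92 ± 0.47 with a limma adjusted p of 0.567. Serpinb9 inhibits granzyme B, and its 2 tested probe sets disagreed in sign, 0.24 ± 0.296 for the brighter and -0.39 ± 0.465 for the dimmer. Serpinb9b and Serpinb11 gave 0.00 ± 0.218 and 0.00 ± 0.323. The other 12 genes lay below the filter. Among them Serpinb1a, an inhibitor of neutrophil elastase, read 16.2, 5.35 and 9.5 in LIGHT Tg on its more variable probe set, against 12.1, 515.2 and 167.6 in WT, so that WT 1 was as dim as LIGHT Tg. Serpinb1b, Serpinb2, Serpinb3a, Serpinb5, Serpinb6b, Serpinb6c, Serpinb7, Serpinb9c, Serpinb9d, Serpinb9g and Serpinb12 ranged from 1.7 to 363.4 over all their probe sets and arrays. With neither filter nor block, no clade B probe set passed (lowest limma adjusted p = 0.145).

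Serpinf1, pigment epithelium-derived factor, inhibits no protease and is known to hold back blood vessel growth. It read 12279.5, 15371 and 15568 in LIGHT Tg, against 15805.5, 17097 and 17652 in WT. All LIGHT Tg arrays were below all WT arrays, but the gap was narrow. The log2 difference was -0.23 ± 0.121 (limma adjusted p = 0.576 without the block and 0.0902 with it), and a dimmer probe set gave -0.135 ± 0.133. Serpinh1 is HSP47, the chaperone that collagen needs to fold in the endoplasmic reticulum. It read 902.9, 1357 and 1520.4 in LIGHT Tg, against 858.5, 771.6 and 916.3 in WT. LIGHT Tg 2 and LIGHT Tg 3 were above all WT arrays and LIGHT Tg 1 was among them. This gave a log2 difference of 0.54 ± 0.228 (limma adjusted p = 0.452), and a dimmer probe set gave 0.16 ± 0.219. Serpini1, neuroserpin, read 118.0, 162.3 and 73.1 in LIGHT Tg, against 90.8, 102.1 and 128.7 in WT. Serpini2, known from pancreas, read 114.4, 48.8 and 59.2 in LIGHT Tg, against 110.7, 48.4 and 80.2 in WT, and neither gene was tested.

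Promoters of the members that changed are shown because the liver serpin genes are known targets of hepatocyte and cytokine-driven transcription factors. RefSeq promoters of GRCm38.p6 were found for 4 of the 6 genes past 5% FDR with the block; Serpina6 and Serpina10 were not among them. The 250 bases before the start are given in the direction of the gene, at chr12:103989958-103990207 (minus strand) for Serpina11, chr12:104406458-104406707 (plus strand) for Serpina3n, chrX:139085237-139085486 (minus strand) for Serpina7 and chr1:107589756-107590005 (plus strand) for Serpinb8. Capitals mark matches, searched on both strands, to a STAT site (TTCNNNGAA), a hepatocyte nuclear factor 1 half-site (GTTAAT) and a TATA box (TATAAA).
Serpina11: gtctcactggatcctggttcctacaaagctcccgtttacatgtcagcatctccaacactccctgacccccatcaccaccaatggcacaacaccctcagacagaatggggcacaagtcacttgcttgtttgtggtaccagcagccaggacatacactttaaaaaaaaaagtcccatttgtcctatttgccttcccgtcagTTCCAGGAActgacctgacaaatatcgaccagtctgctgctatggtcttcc
Serpina3n: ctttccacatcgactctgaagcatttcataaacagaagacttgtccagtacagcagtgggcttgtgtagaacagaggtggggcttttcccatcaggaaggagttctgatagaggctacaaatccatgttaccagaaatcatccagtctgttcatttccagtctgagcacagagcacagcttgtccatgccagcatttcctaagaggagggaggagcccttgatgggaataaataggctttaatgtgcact
Serpina7: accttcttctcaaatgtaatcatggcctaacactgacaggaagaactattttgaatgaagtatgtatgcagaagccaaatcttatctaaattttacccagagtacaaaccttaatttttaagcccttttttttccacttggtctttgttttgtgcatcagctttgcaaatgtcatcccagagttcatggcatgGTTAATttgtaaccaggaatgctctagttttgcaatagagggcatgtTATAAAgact
Serpinb8: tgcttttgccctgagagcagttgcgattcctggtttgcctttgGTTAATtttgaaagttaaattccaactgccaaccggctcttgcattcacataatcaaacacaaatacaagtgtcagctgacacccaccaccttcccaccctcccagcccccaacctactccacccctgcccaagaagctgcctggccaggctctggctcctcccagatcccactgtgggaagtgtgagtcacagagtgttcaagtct
Serpina11 holds the STAT letters 51 to 43 bases before its start. Serpina7 holds the half-site 57 to 52 bases and the TATA letters 10 to 5 bases before its start, and Serpinb8 holds the half-site 207 to 202 bases before. The Serpina3n window holds none of these letters. Over all 32851 promoters, 7.02% hold the STAT letters, 6.43% the half-site and 12.4% the TATA letters in the same window. Of 34 Serpin promoters, 5, 5 and 7 do. RefSeq gives 2 starts for Serpina11 and Serpina7, and the first is shown.

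RefSeq places 28 Serpina genes on chromosome 12, of which 13 were measured and 9 tested. In RefSeq order the log2 differences of the tested genes were 0.535 for Serpina10, 1.56 for Serpina6, 0.016 for Serpina1b, -0.07 for Serpina1c, 1.48 for Serpina11, 0.465 for Serpina9, 1.38 for Serpina12, -1.87 for Serpina4-ps1 and -0.42 for Serpina3n. This cluster holds 9 of the 22 tested Serpin genes. Of the genes that passed with the block, Serpina6, Serpina10, Serpina11 and Serpina3n lie in it. Serpina7 lies on chromosome X and Serpinb8 on chromosome 1, and position was not tested.

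**Figure D4:**
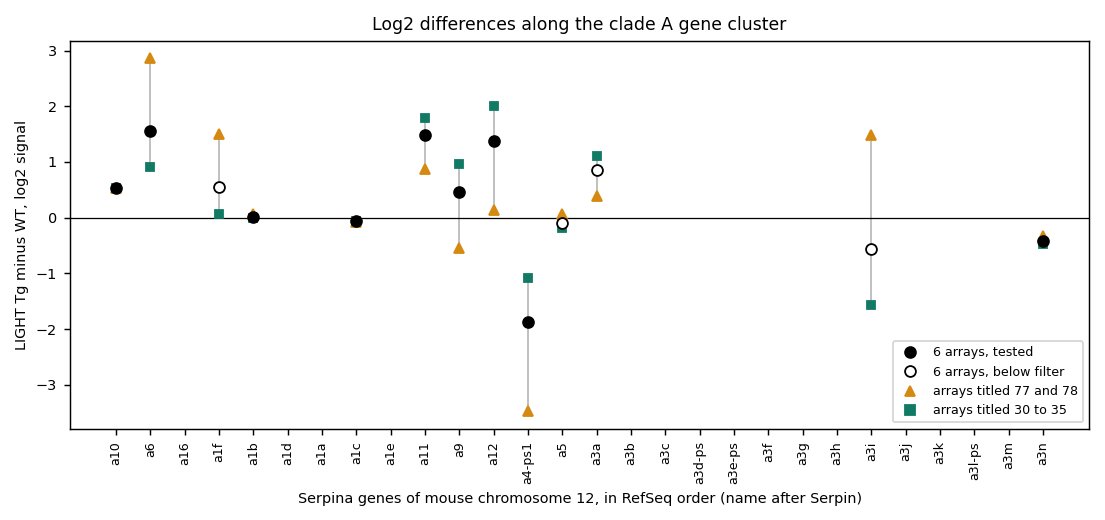
Log2 difference, LIGHT Tg minus WT, of the 28 Serpina genes of chromosome 12 in RefSeq order, not to scale along the chromosome: circles are 6 arrays (filled where tested, open below the filter), triangles arrays 77 and 78 and squares arrays 30 to 35. Genes not measured have no point, and Serpina1b and Serpina1c sit near 0 between Serpina6 (1.56) and Serpina11 (1.48).

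Serpin signals also differed between the title-number sets. With genotype in the fit, 10 of the 28 tested probe sets (35.7%) differed between arrays 77 and 78 and arrays 30 to 35, against 27.4% of all tested. On arrays 77 and 78, 17.9% were higher and 17.9% lower, against 11.7% and 15.7% of all tested, so the shares lie near those of the whole array. In order of size, on the log2 scale, Serpina7 was 2.14 ± 0.427 higher (limma adjusted p = 0.0129) and Serpina12 was 1.85 ± 0.48 higher (limma adjusted p = 0.0294). The dimmer Serpinb9 probe set read 97.0 and 129.2 on LIGHT Tg 1 and WT 1, against 189.9 to 294.6 on the other arrays. Serpinb8 differed by -1.07 and Serpinb6a by 0.95, and Serpina3n was 0.85 ± 0.101 higher (limma adjusted p = 0.00276). Serpind1, Serpinf1 and Serpinf2 were lower by 0.53, 0.235 and 0.35, and a probe set of Serpina1b was 0.24 higher. The sets also differ in signals of Xist and the Y-chromosome genes, as given above. The part of sex in these differences was not tested.

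**Figure D5:**
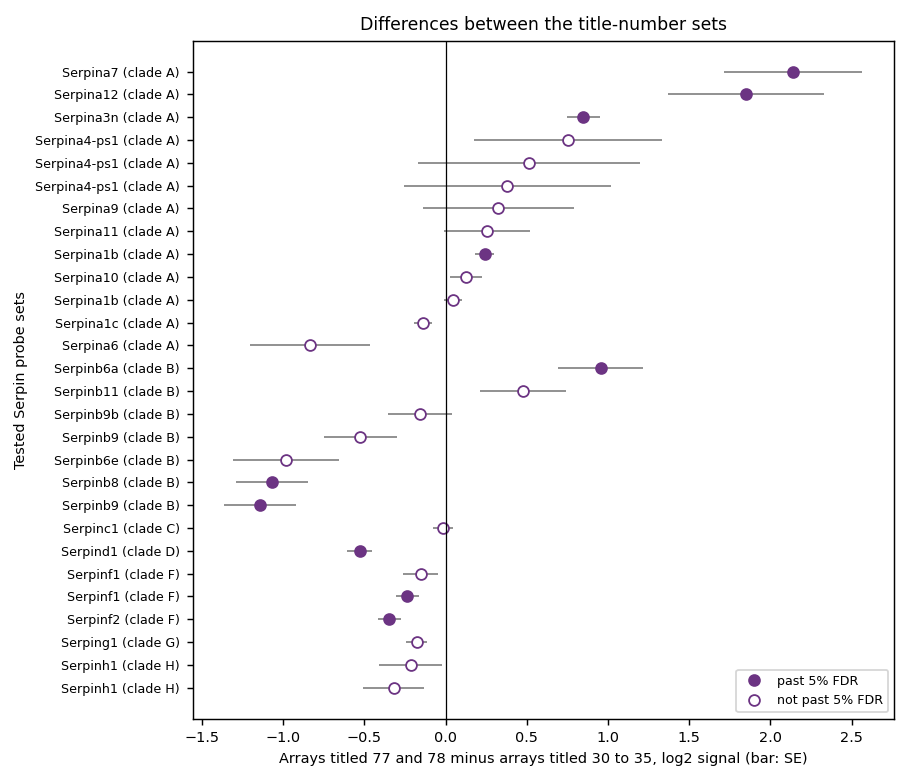
Log2 difference of arrays 77 and 78 minus arrays 30 to 35, with genotype in the fit and the SE as a bar, for the 28 tested Serpin probe sets by clade. The 10 filled circles passed 5% FDR, from -1.14 for a Serpinb9 probe set to 2.14 for Serpina7.

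Whether the genotype difference itself differed between the sets was tested with an interaction term, which 0.0666% of all tested probe sets passed. Of the Serpin probe sets only Serpina6 did, with 1.95 ± 0.163 on the log2 scale (limma adjusted p = 0.0409). It rests on 1 array of each genotype titled 77 or 78 and on 2 residual degrees of freedom, and WT 1 is its low value.

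Other genes of the same pathways were read from lists and named by rule. For scale, 0.715% of all tested probe sets were higher and 0.457% lower without the block. With the block these shares were 3.26% and 3.21%, and no list was tested as a set. The proteases that serpins inhibit, 28 of 32 tested, had 2 higher and 0 lower without the block, and 3 higher and 2 lower with it, with a median log2 difference of -0.03. Coagulation factor VII, F7, read 11902, 11176.5 and 11114 in LIGHT Tg, against 5468, 5444 and 5867 in WT, a log2 difference of 1.03 ± 0.101 (limma adjusted p = 0.00755). Factor X, F10, a target of antithrombin and of the Serpina10 product, gave 0.72 ± 0.106 (limma adjusted p = 0.0306). With the block factor XI, F11, rose (1.11, limma adjusted p = 0.0213), and complement C1s1 fell (-0.93, limma adjusted p = 0.0017). The groups of F7 and F10 did not overlap.

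Among 20 tested inhibitors outside the family, 0 rose and 1 fell without the block, and 2 rose and 1 fell with it. Mug1, a murinoglobulin of the α2-macroglobulin family, read 7823.5, 4479 and 5496 in LIGHT Tg, against 17347, 18021 and 17370.4 in WT (log2 difference -1.61 ± 0.197, limma adjusted p = 0.0169). Fetub, which inhibits astacin proteases, rose by 0.58 with the block, and Itih2, a heavy chain that joins bikunin, by 0.34 (limma adjusted p = 0.0406 each). Of 10 genes that handle or partner serpins, 0 passed without the block. With it Agt, angiotensinogen, a serpin by fold whose symbol keeps it out of the members, fell (-0.61, limma adjusted p = 0.0204) and Edem1, which sorts misfolded glycoproteins for degradation, rose (0.53, limma adjusted p = 0.0321). Of 12 tested regulators of liver serpins 0 passed without the block and 2 fell with it. These were the repressor Bcl6 (-1.61, limma adjusted p = 0.00543) and the acute-phase activator Cebpb (-0.495, limma adjusted p = 0.0447).

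Of 17 acute phase genes 1 fell, Saa4, a constitutive serum amyloid A (-0.95 ± 0.145, limma adjusted p = 0.0347), and the median was -0.17. Sex-biased liver genes had larger median differences. The median of 8 female-biased genes was 2.22, with 4 higher with the block, the cytochromes Cyp3a16 and Cyp3a44, the oxidase Hao2 and the thioesterase Acot3. The other 4 did not pass, and of these Cyp2b9 (-2.76, limma adjusted p = 0.598 without the block and 0.13 with it) and Cyp2b13 (-2.84, limma adjusted p = 0.526 and 0.0942) had the opposite sign. That of 7 male-biased genes was -0.61, with the elongase Elovl3 and the cytochrome Cyp2d9 lower with the block. Cyp4a12a (0.54) and Slco1a1 (0.23) had the opposite sign and did not pass. These medians were not even over the title-number sets. The female-biased median was 3.38 between LIGHT Tg 1 and WT 1, with 1 array of each genotype, and 1.47 within the other arrays. The male-biased median was -2.25 between LIGHT Tg 1 and WT 1 and -0.281 within the other arrays. No sex-biased gene passed without the block. The median over all genes tested was -0.01. Their part in the Serpin differences was not tested.

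Hepatocytes, the source of most plasma serpins, were marked by 8 genes, all tested, with 0 past the test without the block and 1, Tdo2, lower with it. Their summed signal was 119830.3 to 137588 in LIGHT Tg and 131259.8 to 141925 in WT. Of leukocyte markers, which bear on clade B, 0 of 8 macrophage, 0 of 5 neutrophil and 0 of 4 lymphocyte genes passed with or without the block. The log2 differences with the largest moderated statistics were -0.36 for Clec4f and 1.20 for Marco among macrophage genes, -0.88 for Mpo and -0.48 for Ngp among neutrophil genes, and 0.945 for Jchain and -0.19 for Ms4a1 among lymphocyte genes. Neutrophil markers summed to 1395 to 6347 in LIGHT Tg and 2552 to 5535 in WT. Macrophage markers summed to 20049 to 32345 in LIGHT Tg and 28858 to 32889.8 in WT, and lymphocyte markers to 2101 to 2586 in LIGHT Tg and 1603 to 2180.1 in WT. Stellate and fibroblast markers, which bear on Serpinh1, had 0 of 8 past the test, with -1.25 for Lrat and -0.21 for Reln. Of 7 endothelial markers 2 were higher without the block (Vwf, 2.39, and Lyve1, 1.24) and 3 with it (Stab2, 0.75), while the other 4, from -0.09 for Kdr to 0.36 for Clec4g, did not pass. The 7 summed to 10096 to 13053 in LIGHT Tg and 6753 to 7714 in WT. Of the bile duct markers 1 of 2 tested was higher (Prom1, 4.20 ± 0.483, limma adjusted p = 0.0134). Pancreatic acinar markers, which bear on Serpini2, had 1 of 6 tested (Cela2a, 0.51) and 0 past the test, and 0 of 3 adipocyte markers reached the filter. The part of these other cell types in the Serpin differences was not tested.

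The 3 probe sets with several Serpin symbols did not pass either. The probe set of Serpina1d and Serpina1a gave 0.0072 on the log2 scale, and that of Serpina1e, Serpina1c and Serpina1b gave 0.43 (limma adjusted p = 0.87). The probe set of Serpinb9h, Serpinb9g, Serpinb9e and Serpinb9f gave 0.885 (limma adjusted p = 0.671). All 3 differed between the title-number sets. In the order given, arrays 77 and 78 differed by -0.368, -1.27 and 1.39 (limma adjusted p = 0.00735, 0.00329 and 0.00979).

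With each array left out in turn and the block kept, the calls of the 6 members were lost in part. Serpina11 kept its call in 4 of 6 refits (limma adjusted p from 0.0191 to 0.0664), and lost it without LIGHT Tg 2 and without LIGHT Tg 3. Serpina7 kept it in 3 of 6 (0.0254 to 0.137), Serpina6 in 2 of 6 (0.00688 to 0.10), Serpinb8 in 2 of the 4 in which it was tested (0.0344 to 0.0881), Serpina10 in 1 of 6 (0.0137 to 0.0865) and Serpina3n in 0 of 6 (0.0795 to 0.152). All 6 kept their direction in each of these refits. The refits without WT 1 and without LIGHT Tg 1 are not separate checks. Each leaves a lone array in its title-number set, which the block absorbs. Both therefore give the difference within the other set, 0.915 for Serpina6 and -1.24 for Serpinb8. The calls kept by Serpina6 and Serpinb8 come only from these refits, and those of Serpina7 and Serpina11 in part. Without WT 1 and with no block, 2 Serpin genes passed, Serpina6 (0.96, limma adjusted p = 0.0204) and Serpina11 (1.72, limma adjusted p = 0.0319). With no filter and the block, a setting chosen after seeing the data, Serpina11 (limma adjusted p = 0.0351) and Serpinb8 (0.048) passed and the other 4 did not (0.0518 to 0.0957).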

How the data were processed

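Gene expression was measured on Affymetrix arrays, 1 per sample, in 3 LIGHT Tg and 3 WT liver samples. The deposited values are MAS5 intensities, 1 linear signal per probe set; the submitters' processing notes name MAS5. Its version and target are not stated there, and no detection calls were used, so low signals carry no bound. Trimmed mean signals (2% left out at each end) lay between 488.6 and 502.9. Genes were named from the platform annotation, checked against RefSeq (GRCm38.p6), which changed 0 Serpin symbols. Of 45101 probe sets, 64 controls were left out; 34945 of the others had 1 gene symbol, 932 several and 9160 none.

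A floor of 1 was applied to 106 lower signals before log2. Probe sets with a mean log2 at or above the median of 7.387 were tested (22519) with limma 3.58.1 under R 4.3.3 (lmFit, then eBayes with trend), two-sided, with Benjamini-Hochberg adjustment over all tested and a threshold of 5% FDR. Differences are LIGHT Tg minus WT with the moderated SE. The fit was repeated with the title-number set as a block, within arrays 30 to 35, and with an interaction; it was tested on simulated data. With 3 arrays against 3, the smallest exact permutation p is 0.1. Where a gene has several probe sets, the one with the highest mean log2 leads. No overlap means that every array of a group lies beyond every array of the other. Precision is limited by the number of arrays.

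The members and the 17 gene lists (192 entries, 19 not matched) were chosen with earlier results of these data known. Per-array signals are given for members past 5% FDR without or with the block, for the brightest member of each clade, and for up to 6 members by size past 5% FDR between sets or in the interaction. Other members with per-array signals were chosen after their values were seen. From each list up to 4 genes past 5% FDR are named by moderated statistic, or otherwise 2. Alternatives were an offset of 37.5 before log2, a filter at the 75th percentile or none, quantile normalization, eBayes without the trend or robust, the mean over a gene's probe sets, the block, arrays 30 to 35 alone, and each array left out. In the last, the filter was recomputed on the remaining arrays.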

Additional observations from a re-analysis of the deposited data

Results flagged for a closer look

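Serpina6 was the Serpin gene whose LIGHT Tg minus WT difference differed between the title-number sets, by 1.95 ± 0.163 on the log2 scale (limma interaction, adjusted p = 0.0409). The difference was 2.86 between the arrays titled 77 and 78, with 1 array of each genotype, and 0.915 within the arrays titled 30 to 35. LIGHT Tg arrays read 17018 to 19626 in both sets, and WT 1 read 2697 against 8961.5 and 9972 on WT 2 and WT 3. The interaction did not pass with no filter, with an offset before log2 or without the variance trend.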

How the results depend on the processing

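No Serpin probe set or gene passed without the block, while 1 passed with the filter at the 75th percentile (Serpina11, limma adjusted p = 0.0454) and, for genes, with the mean over a gene's probe sets (Serpina11 again), 6 with the title-number set as a block, and 4 within arrays 30 to 35. With each array left out the count was 0 to 2 without the block (2 without WT 1, otherwise 0) and 0 to 4 with it (0 without LIGHT Tg 3). The 7 calls over the 17 lists taken as a whole became 4 with no filter or without the trend, 24 with the block, 22 within arrays 30 to 35 and 0 to 22 with each array left out (without the block 12 without WT 1 and 0 without LIGHT Tg 3). The 10 probe sets that differed between title-number sets became 6 without the trend, and the 1 interaction call became 0 with no filter, with the offset or without the trend. The cause was not tested, apart from fewer genes or arrays tested where the setting removes them.

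Of 22 members, 14 kept their sign in all settings run, among them all 6 named as changed, and 8 did not, none of them called in any comparison of genotypes. The log2 differences of those 8 with the opposite sign were -0.0073 for Serpina1b, -0.017 for Serpinb6a, -0.025 for Serpinb9 and -0.101 for Serpinb9b within arrays 30 to 35, -0.0041 for Serpinb9b and 0.015 for Serpinb11 with quantile normalization, 0.0067 for Serpinb11 with the offset, and -0.077 for Serpinb9 with the mean of its probe sets. With each array left out, without or with the block, they ranged from -0.0114 to 0.0326 for Serpina1b, -0.0826 to 0.972 for Serpina9, -0.253 to 0.265 for Serpinb11, -0.173 to 0.678 for Serpinb6a, -0.0685 to 0.463 for Serpinb9, -0.145 to 0.198 for Serpinb9b, -0.0665 to 0.286 for Serpind1 and -0.0973 to 0.134 for Serpinf2. No paired analysis was possible because the title numbers differ between the genotypes and the replicate numbers follow listing order only.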
